A study of Homo sapiens with 24 samples.

Results

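METTL14-depleted HepG2 cells were followed through 6 h of actinomycin D, an inhibitor of transcription. The libraries taken after 6 h were compared with the untreated libraries of the same line. How complete the block of transcription was, was not tested. The comparison rests on 4 libraries, chosen by their sample titles from 24 in the whole series: 2 of shMETTL14 cells at 6 h and 2 of shMETTL14 cells at 0 h. The 1 h and 3 h libraries of the line bring it to 8 libraries and are used for the course. HepG2 is a human hepatocellular carcinoma line; every culture carried a stably integrated lentiviral short hairpin RNA, against METTL14 (shMETTL14), against SETD2 (shSETD2) or a control (shCtrl), and had been selected with puromycin at 1 ug/mL. Treated cells received actinomycin D at 5 ug/mL for 1, 3 or 6 h, and cells at 0 h were untreated, with no vehicle named in the labels. Whether the shMETTL14 line was a pool or a single clone, and how many hairpins it represents, is not stated in the labels. The series asks how long RNAs persist when METTL14 or SETD2 is reduced.

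Actinomycin D intercalates into DNA and blocks RNA polymerases, so an RNA that is quickly degraded is soon depleted while a long-lived RNA persists. METTL14 is the partner of the methyltransferase METTL3 in the nuclear complex that places N6-methyladenosine (m6A) on mRNA, and reader proteins such as YTHDF2 can direct m6A-bearing mRNAs to deadenylation and decay. In liver cells, short-lived mRNAs typically encode transcription factors and signalling inhibitors, and long-lived mRNAs encode secreted plasma proteins and metabolic enzymes.

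The libraries held 22332380 and 19633801 gene counts at 6 h, against 26935672 and 23803022 at 0 h, and those of the whole line 19633801 to 30127462. A count of 3 corresponded to 0.0936 to 0.175 CPM (counts scaled by library size and TMM factor) across the line, and such floors cover counting error only. The 10 most abundant genes took 19.2% and 19.4% of the counts at 6 h, against 14% and 14.1% at 0 h. Spike-in RNA was added to the samples per the labels, but 0 spike-in entries stand in the table used here, so every level is relative to its own library. A gene said to have risen did so relative to the centre that TMM sets; it need not have gained molecules or a larger share of the library's counts. In bulk samples fewer cells and less RNA per cell cannot be told apart.

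The targeted gene was examined first. METTL14, on chromosome 4 (GRCh37 chr4:119606523-119636588, plus strand), stood at 5.85 and 7.12 CPM in shMETTL14 cells at 6 h, against 15 and 13.9 CPM at 0 h. In shCtrl cells it stood at 14.4 and 15.2 CPM at 6 h, against 29.3 and 30 CPM at 0 h, so both shMETTL14 libraries lay below both shCtrl libraries at either time, in the direction of the label. METTL14 mRNA fell by 1.17 ± 0.13 (log2 fold change ± SE; edgeR adjusted p = 2.2e-08) over 6 h in the knockdown line, and the level at 6 h was 44.8% of that at 0 h. Its log2 fold change in shCtrl cells was -1, and the difference between the lines did not pass the test (-0.16, adjusted p = 0.71). METTL3, whose gene overlaps TOX4 so that its counts are uncertain, had 57.5 and 57.7 CPM at 6 h, against 57.5 and 55.5 CPM at 0 h, and did not pass the test (0.03, adjusted p = 0.66); with library size alone it was called lower (-0.41).

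The identity of the cells was checked on liver products. Albumin (ALB) stood at 14579 and 14927 CPM at 6 h, against 7371 and 7249 CPM at 0 h, and alpha-fetoprotein (AFP), the fetal counterpart of albumin, at 18934 and 20218 CPM, against 9025 and 9114 CPM. Of the marker genes listed for other cell types, 5 of 10 for fibroblasts (COL1A2, DCN, FAP, POSTN and THY1) and 6 of 14 for blood cells (among them PTPRC, CD3E and HBB) had no count in any of the 4 libraries. The blood list summed to 4007 and 4420 CPM at 6 h, against 2468 and 2542 CPM at 0 h, before TMM scaling, and lysozyme (LYZ) alone made 99.8% of it; the fibroblast list summed to 52.7 and 49.5 CPM, against 36.8 and 34.0 CPM. The endothelial and stellate list, with 3 of 11 members at 0, summed to 2490 and 2434 CPM at 6 h, against 1835 and 1797 CPM at 0 h, of which RELN made 98.4%. The list for HEK293T, the cells that packaged the virus, summed to 360 and 370 CPM at 6 h, against 288 and 290 CPM at 0 h, of which CDH2 made 97.7%, with GATA3, NEFL and NEFM at 0. The sums were higher at 6 h for all 4 lists, and their part in the results was not tested.

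After 6 h of actinomycin D most tested genes of the shMETTL14 line had changed. Of 14887 genes tested with edgeR, 10748 changed (72.2%) at an adjusted p under 0.05; 5600 rose (37.6%), 5148 fell (34.6%) and 4139 did not pass. The falls were the larger changes: 2973 genes fell by more than 1 on the log2 scale and 120 by more than 4, whereas 1190 rose by more than 1 and 22 by more than 2. The 10th and 90th percentiles of the log2 fold change were -1.78 and 0.96.

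The direction of small changes depends on the scaling. The median log2 fold change of all tested genes was 0.06 with TMM, -0.38 with library size alone and -1.04 when each library was scaled to the sum of its ribosomal protein counts; library size alone gave 2942 genes higher and 7399 lower, and the ribosomal scaling 87 higher and 11885 lower. Rises and falls below are those called with TMM; a TMM rise smaller than the gap between the first 2 medians is a fall in the share of library counts. Counts of called list members are to be read against 37.6% higher and 34.6% lower among all tested genes. A list's distance from the median of all genes moved by at most 0.02 between the scalings. List medians are log2 fold changes with TMM, and for immediate early genes and secreted liver proteins also relative to that median.

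**Figure D1:**
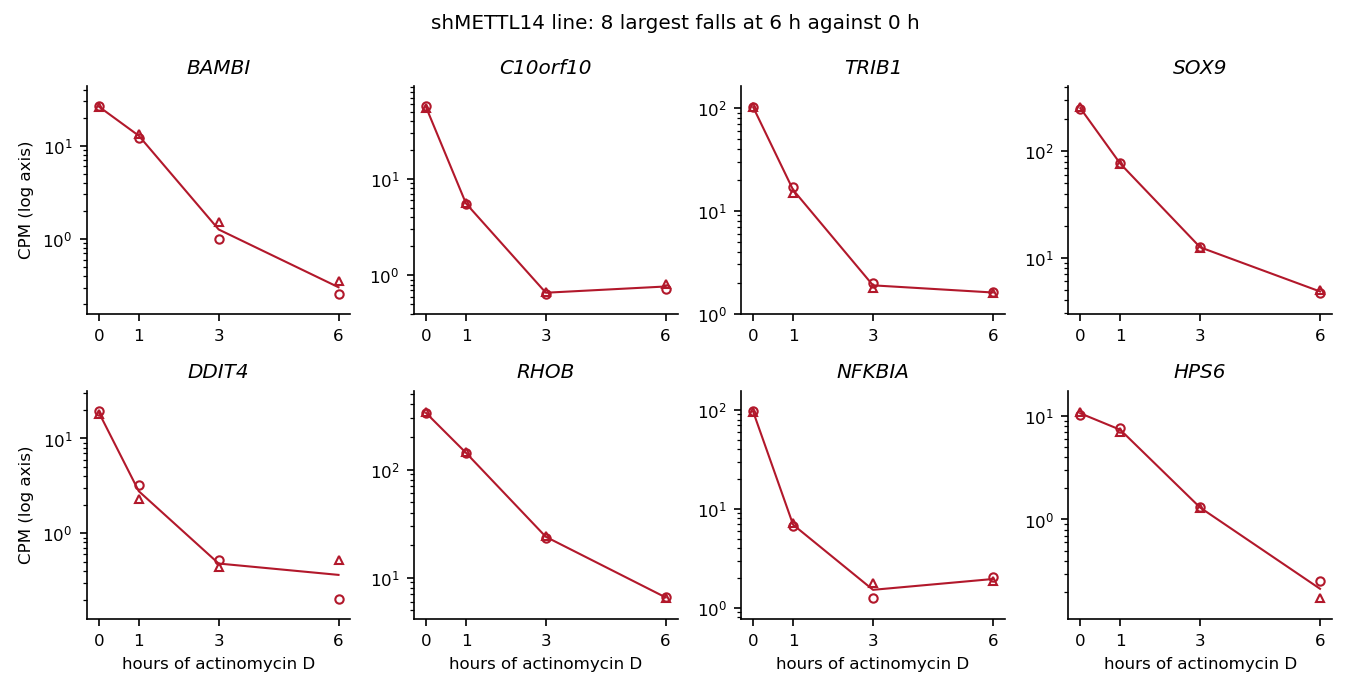
CPM on a log axis against hours of actinomycin D for the 8 genes with the largest falls at 6 h against 0 h in the shMETTL14 line; circles are replicate 1, triangles replicate 2, lines join the means of 2 libraries. The genes lost most of their share by 3 h, and NFKBIA stood at 1.52 CPM at 3 h and 1.95 CPM at 6 h.

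The 8 largest falls were in genes of varied function. BAMBI encodes a decoy receptor that restrains TGF-beta and BMP signalling. Its mRNA (GRCh37 chr10:28966271-28971868, plus strand) had 0.254 and 0.350 CPM at 6 h, against 26.7 and 26.0 CPM at 0 h. The libraries at 6 h held 5 and 6 of its counts. The fall was -6.44 ± 0.20 (log2, edgeR adjusted p = 7.3e-18), an 86.7-fold lower level. TRIB1, a pseudokinase adaptor that leads C/EBP-alpha to degradation, had 1.63 and 1.57 CPM at 6 h, against 102 and 102 CPM at 0 h (-5.99, adjusted p = 4.0e-20). SOX9, a transcription factor of biliary and progenitor fate (chr17:70117161-70122561, plus strand), had 4.68 and 4.96 CPM at 6 h, against 250 and 258 CPM at 0 h (-5.72 ± 0.08, adjusted p = 8.7e-24). The naming rule took only genes whose 6 h and 0 h libraries lay apart, so their separation is no further support. At 0 h the replicates of these genes lay close together.

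RHOB, a small GTPase gene with a single exon (chr2:20646835-20649200, plus strand), had 6.56 and 6.53 CPM at 6 h, against 330 and 338 CPM at 0 h (-5.67 ± 0.06, adjusted p = 1.5e-25). NFKBIA, which encodes the inhibitor IkappaB-alpha (chr14:35870717-35873955, minus strand), had 2.03 and 1.87 CPM at 6 h, against 96.5 and 95.7 CPM at 0 h (-5.62 ± 0.10, adjusted p = 1.6e-21). DDIT4, an inhibitor of mTORC1 (chr10:74033678-74035794, plus strand), had 0.203 and 0.525 CPM at 6 h, against 19.5 and 18.2 CPM at 0 h (-5.72). The replicates of DDIT4 at 6 h rest on 4 and 9 counts and differ accordingly. HPS6, a subunit of the BLOC-2 complex of lysosome-related organelles (chr10:103825147-103827792, plus strand), held 5 and 3 counts at 6 h, against 328 and 309 counts at 0 h (-5.57 ± 0.20). C10orf10, whose gene overlaps RASSF4 so that its counts are uncertain, had 0.712 and 0.817 CPM at 6 h, against 56.9 and 55.1 CPM at 0 h (-6.19 ± 0.15). The proto-oncogene MYC, the classical short-lived mRNA, had 3.30 and 2.74 CPM at 6 h, against 106 and 102 CPM at 0 h (-5.10 ± 0.10, adjusted p = 3.2e-21).

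AU-rich elements in 3′ UTRs are bound by decay factors such as the ZFP36 proteins, and their core heptamer, UAUUUAU in RNA, is TATTTAT in the DNA letters used here. It was searched on the transcript strand only, counting overlapping matches, in the 3′ UTR of 1 GENCODE v29 transcript (GRCh38) for each of 12432 genes, and 3769 of them (30.3%) held it. Of the largest falls, SOX9 and NFKBIA held it, BAMBI, C10orf10, DDIT4, RHOB, HPS6 and TRIB1 did not, and it also stood in IER3 and CYR61, an immediate early pair described below. Windows of 30 bases are shown for these 4 falling mRNAs and for 2 mRNAs that rose, FN1 and FGA, to show that the same letters stood in both; capitals mark the heptamer.
SOX9: acttgctaaaatTATTTATtttgtaaggag
NFKBIA: gaccacattttaTATTTATtgtgcttcgag
IER3: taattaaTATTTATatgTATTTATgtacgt
CYR61: aaagatttTATTTATggaattaaccattta
FN1: atttaagtggaccccaaTATTTATtaaaat
FGA: atttaaaattttaaaacTATTTATgaatat
In GRCh38 the windows lie at chr17:72125497-72125526 (plus strand) for SOX9, chr14:35401699-35401728 (minus) for NFKBIA, chr6:30743648-30743677 (minus) for IER3, chr1:85583656-85583685 (plus) for CYR61, chr2:215360614-215360643 (minus) for FN1 and chr4:154583438-154583467 (minus) for FGA. SOX9, NFKBIA, CYR61, FN1 and FGA each held 2 such heptamers in the whole 3′ UTR, and IER3 held 4. A match is a description of the letters and not evidence of a bound site.

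**Figure D2:**
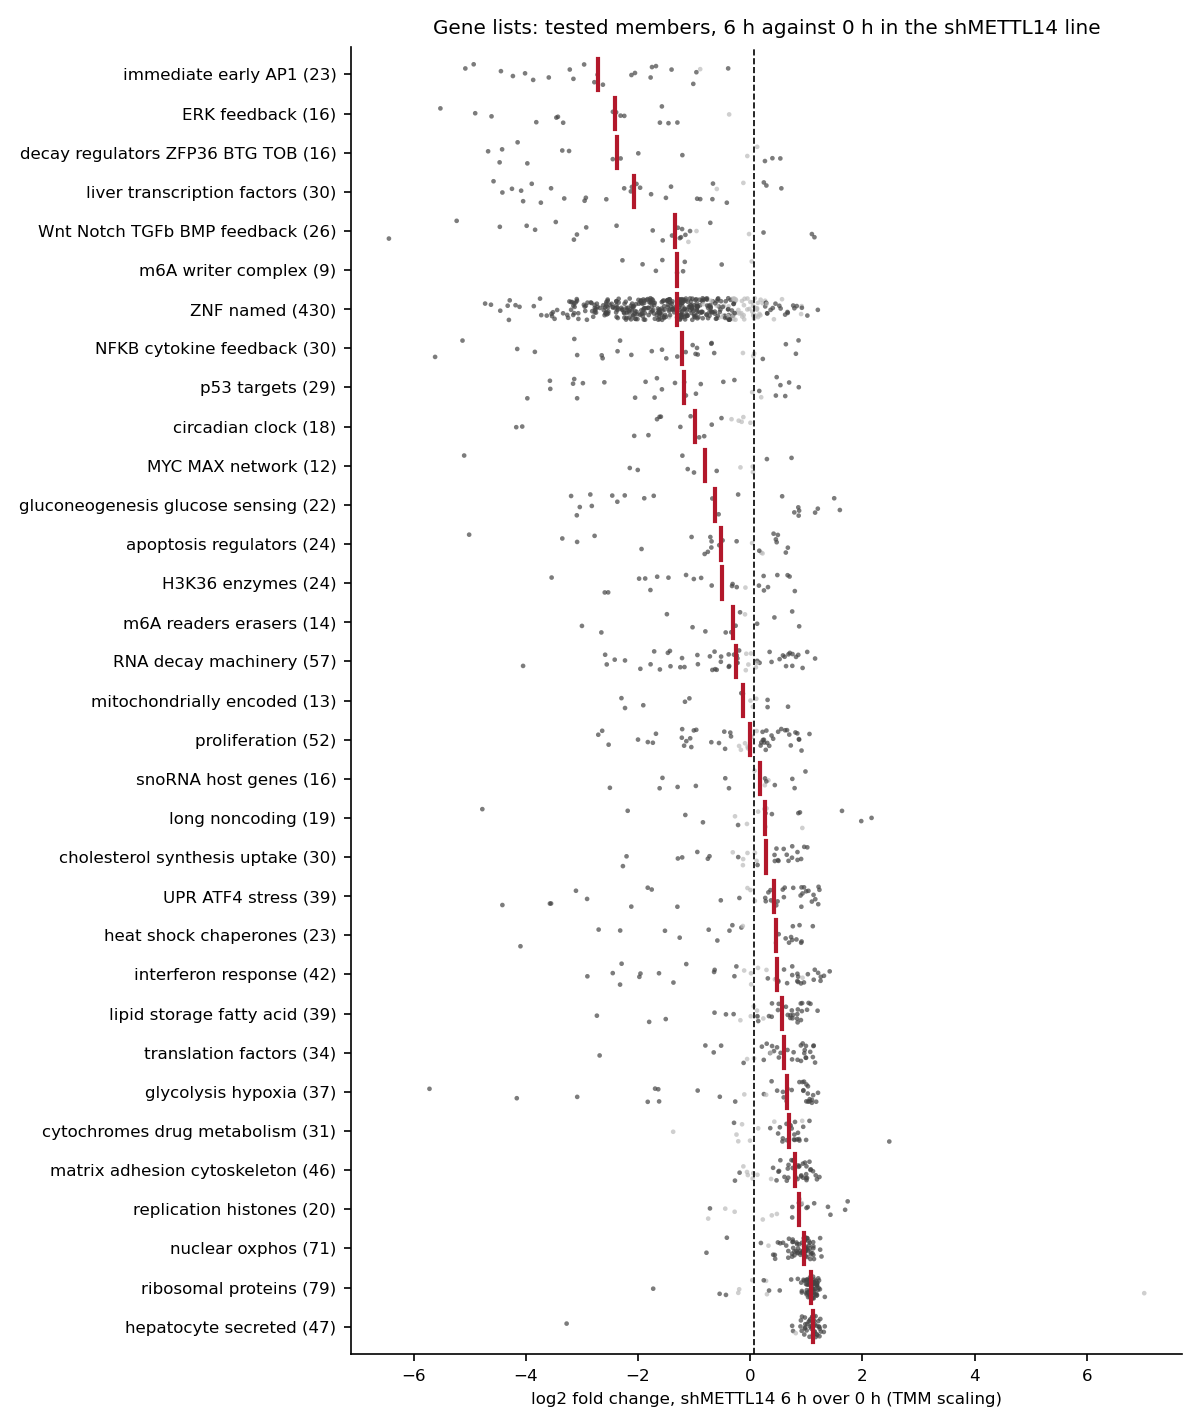
Log2 fold change at 6 h against 0 h in the shMETTL14 line for the tested members of each gene list (number tested in brackets); dark points passed the test, grey points did not, red bars are list medians and the dashed line is the median of all tested genes, 0.06. Medians run from -2.72 for immediate early genes to 1.11 for secreted liver proteins.

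Immediate early genes are transcription factors and signalling genes switched on by growth factors without new protein synthesis. Of 23 tested members 22 fell (95.7%, against 34.6% of all tested genes) and 0 rose, with a median of -2.72, which is -2.78 relative to all genes. IER3, an early apoptosis and stress regulator, had 3.25 and 2.51 CPM at 6 h, against 99.6 and 96.7 CPM at 0 h (-5.08 ± 0.11). The matricellular growth factors CYR61 and CTGF, both induced by the YAP pathway, fell with log2 changes of -4.23 ± 0.11 and -3.22 ± 0.06. JUNB (-4.93), JUN (-4.01), EGR1 (-3.15) and FOS (-2.72), the AP-1 and EGR factors, also fell, and SRF, the constitutive activator of these genes, fell by 0.39. FOSB did not pass (-0.89).

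Inhibitors of growth factor signalling also fell. Of 16 tested members of the ERK feedback list, which holds the dual-specificity phosphatases, Sproutys and SPREDs, 15 fell and 0 rose (median -2.42). DUSP6, the phosphatase that inactivates ERK, had 1.73 and 1.75 CPM at 6 h, against 78.4 and 81.8 CPM at 0 h (-5.52 ± 0.11). SPRY2 (-4.90) and DUSP1 (-4.61) followed. ERRFI1, an inhibitor of the EGF receptor, had 25.8 and 25.6 CPM at 6 h, against 254 and 264 CPM at 0 h (-3.33 ± 0.06). Of 30 NF-kappaB and cytokine feedback genes, 23 fell and 4 rose (median -1.22), with TNFAIP3, a deubiquitinase that terminates NF-kappaB signalling, at -1.75 and SOCS6 at -2.63.

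Among 26 Wnt, Notch, TGF-beta and BMP feedback genes 20 fell and 3 rose (median -1.34). ID2, a dominant negative partner of basic helix-loop-helix factors, had 1.47 and 1.69 CPM at 6 h, against 57.7 and 61.1 CPM at 0 h (-5.23 ± 0.12). ID1 (-3.47) and AXIN2 (-2.92), the scaffold induced by Wnt signalling, also fell. TCF7 and NOTUM were among the 3 that rose, and were named after their values were seen; 2 were higher with library size alone. In the MYC and MAX network 7 of 12 fell and 2 rose, MXI1 and MLXIPL, of which 1 was higher with library size alone; MGA (-2.15) and MXD1 (-2), whose gene overlaps SNRNP27, fell. Of 18 clock genes 13 fell and 0 rose (median -0.99), with the repressors BHLHE40 at -4.17 and NFIL3 at -4.06 and PER2 at -1.66.

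Most mRNAs of transcription factors that define the hepatocyte fell. Of 30 listed liver factors, 25 fell (83.3%), 3 rose and the median was -2.07. FOXA1, a pioneer factor whose gene overlaps TTC6, had 3.71 and 3.85 CPM at 6 h, against 89.5 and 90.7 CPM at 0 h (-4.57 ± 0.10). XBP1, the unfolded protein response factor, had 14.1 and 14.1 CPM at 6 h, against 301 and 301 CPM at 0 h (-4.42 ± 0.05), and TBX3 fell by 2.95. GATA4 fell by 4.05, while HNF4A, the central hepatocyte factor, fell by 0.42, to 128 and 122 CPM at 6 h, against 168 and 166 CPM at 0 h. The members that rose were PPARA (0.24), NR1I2 (0.29) and NR1H3 (0.55), all nuclear receptors, named after their values were seen; with library size alone 0 were higher and 27 lower. The counts of the 30 genes together made 0.0456% ± 0.00013 of a library at 6 h, against 0.190% ± 0.00013 at 0 h (SD, n = 2 each).

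Genes named ZNF, mostly encoding zinc finger transcription factors, moved the same way. Of 531 with an entry, 430 were tested, of which 350 fell (81.4%) and 19 rose (4.42%), with a median of -1.30. Their share of the counts was 0.318% at 6 h, against 0.825% at 0 h. ZNF503, whose gene overlaps its antisense RNA ZNF503-AS2, had a log2 change of -4.62, ZNF217 of -3.53 and ZNF281 of -3.19.

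Part of the mRNAs for decay factors and m6A proteins fell. Of 16 regulators of decay, 11 fell and 3 rose (median -2.38). ZFP36L2, which binds AU-rich elements and whose gene overlaps THADA, had 5.69 and 5.72 CPM at 6 h, against 142 and 149 CPM at 0 h (-4.67 ± 0.08). TOB1, which recruits the CCR4-NOT deadenylase, had 3.46 and 3.56 CPM, against 74.5 and 76.0 CPM (-4.42 ± 0.10), and ZFP36L1 fell by 3.23. The 3 that rose, ELAVL1 (0.26), HNRNPD (0.39) and KHSRP (0.54), are RNA-binding proteins expressed in most cells, and were named after their values were seen; with library size alone 0 were higher and 14 lower. Of 57 genes of the deadenylation, decapping, exosome and nonsense-mediated decay machinery, 33 fell and 17 rose (median -0.25), or 42 and 9 with library size alone. PNRC1 changed by -4.05, DCP1A, a decapping activator, by -2.23 and CNOT2 by -1.78.

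Of 9 genes of the m6A writer complex, 8 fell and METTL3 did not pass (median -1.30), while with library size alone all 9 were lower. The log2 change was -2.28 for CBLL1, -1.92 for WTAP, which holds the complex in nuclear speckles and whose gene overlaps SOD2, and -1.20 for RBM15B, whose gene overlaps VPRBP. Among 14 readers and erasers 9 fell and 4 rose (median -0.30), or 11 and 2 with library size alone. YTHDF2, the reader best known for promoting decay, had 7.68 and 8.46 CPM at 6 h, against 63.8 and 64.9 CPM at 0 h (-3.00 ± 0.09), and YTHDF1 fell by 2.65. HNRNPA2B1, whose gene overlaps CBX3, rose by 0.87, and the demethylase ALKBH5 fell by 0.26. Of 24 enzymes and readers of H3K36 methylation 15 fell and 8 rose (median -0.51), or 18 and 3 with library size alone. MSH6, a mismatch repair protein that binds H3K36me3 and whose gene overlaps FBXO11, changed by -2.59, IWS1 by -2.53 and KDM2A by -1.98. SETD2, the trimethylase that the other hairpin targets, fell by 1.78 here.

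Of 24 apoptosis regulators 14 fell and 7 rose (median -0.52); with library size alone 16 were lower and 1 higher (median -0.96). FADD, the adaptor of death receptors, changed by -5.01, BMF by -3.35 and MCL1, the labile survival protein, by -2.77. Of 29 p53 targets 20 fell and 7 rose (median -1.18), or 21 and 2 with library size alone. BTG2 changed by -3.97, PPM1D by -3.14 and PHLDA1 by -2.98. In the unfolded protein and ATF4 response, 25 of 39 rose and 11 fell (median 0.42); with library size alone 15 were higher and 15 lower (median -0.02). The endoplasmic reticulum chaperone PDIA6 had 1407 and 1464 CPM at 6 h, against 646 and 640 CPM at 0 h (1.16 ± 0.04), while XBP1 (-4.42) and HERPUD1 (-1.76), a component of reticulum degradation, fell. Of 23 heat shock genes 11 rose (47.8%) and 10 fell (43.5%; median 0.45 with TMM, 0.01 with library size alone). The members furthest down were DNAJB1, whose gene overlaps TECR, at -4.09, HSPA1B at -2.70 and BAG3, a co-chaperone, at -2.32; HSPA1B and HSPA1A are near-identical copies, so their split of reads is uncertain.

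Secreted liver proteins formed the group furthest above the median of all genes. Of 47 tested, 45 rose (95.7%, against 37.6% of all tested genes), 1 fell and the median was 1.11, which is 1.05 relative to all genes. Together they made 15.5% of the counts in each library at 6 h, against 10.3% and 10.2% at 0 h. SERPINA1, the antiprotease alpha-1-antitrypsin, had 13585 and 13263 CPM at 6 h, against 5713 and 5587 CPM at 0 h (1.25 ± 0.04, adjusted p = 1.4e-18). ITIH2, a hyaluronan-binding inhibitor chain, had 7770 and 7756 CPM, against 3587 and 3506 CPM (1.13 ± 0.03), and FGA, the fibrinogen alpha chain, had 4030 and 3945 CPM, against 1929 and 1908 CPM (1.06 ± 0.03). The member that fell was SERPINA3, an acute phase antichymotrypsin, with 3.46 and 1.87 CPM at 6 h, against 26.4 and 26.0 CPM at 0 h (-3.27), singled out after its value was seen. With ribosomal scaling the median of the secreted list was 0.01.

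Ribosomal protein genes rose in 70 of 79 and fell in 3 (median 1.08). Their share of the counts was 2.58% and 2.39% at 6 h, against 1.60% and 1.54% at 0 h. RPS4X had 764 and 735 CPM at 6 h, against 337 and 325 CPM at 0 h (1.18 ± 0.05), and RPL35 rose by 1.24 and RPL6, whose gene overlaps PTPN11, by 1.08. Ribosomal proteins have many processed pseudogenes, so reads could be split between copies. Of 71 nuclear genes of oxidative phosphorylation 68 rose (95.8%) and 2 fell (median 0.95), among them UQCRC2 of complex III (0.79), NDUFA4 (1.06) and the ATP synthase subunit ATP5L (1.06). Of 34 translation factors 26 rose and 5 fell (median 0.60), with PABPC1, the poly(A)-binding protein, at 1.13, EEF1A1 at 1.12 and PABPC4 at 0.99. With library size alone 17 translation factors were higher and 10 lower (median 0.16).

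Matrix, adhesion and cytoskeleton genes rose in 36 of 46 and fell in 2 (median 0.79). FN1, fibronectin, had 50499 and 48513 CPM at 6 h, against 23021 and 22584 CPM at 0 h (1.12 ± 0.04). LAMB1, whose gene overlaps DLD, rose by 1.01, and ACTB, beta-actin, by 0.94, with 2679 and 2735 CPM at 6 h, against 1397 and 1421 CPM at 0 h. Of 37 glycolysis and hypoxia genes 25 rose and 10 fell (median 0.66). With library size alone 19 were higher and 12 lower (median 0.22). PGK1, a glycolytic enzyme, rose by 0.95, whereas DDIT4 and the demethylase KDM3A (-1.64), both induced by hypoxia, fell. Of 31 drug-metabolising enzymes 22 rose and 1 fell, CYP1A1 (-0.29), named after its value was seen (median 0.70). With library size alone 15 of these enzymes were higher and 4 lower (median 0.26). ALDH2 rose by 1.06, EPHX1 by 0.85 and ALDH1A1 by 0.83.

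Of 39 genes of lipid storage and fatty acid metabolism 27 rose and 6 fell (median 0.57); with library size alone 18 were higher and 13 lower (median 0.13). The desaturase SCD had 1815 and 1820 CPM at 6 h, against 961 and 983 CPM at 0 h (0.90 ± 0.03), and HADHA, whose gene overlaps HADHB, rose by 1.01, while PLIN2, which coats lipid droplets, fell by 1.51. In the cholesterol list 16 of 30 rose and 8 fell (median 0.28); with library size alone 10 were higher and 14 lower (median -0.16), and the list made 0.317% of the counts at 6 h, against 0.357% at 0 h. DHCR7, the last reductase of the pathway, rose by 0.96. Of 22 genes of gluconeogenesis and glucose sensing 13 fell and 9 rose; the median was -0.62, but -1.25 over 24 genes without a filter and -1.19 over 20 with the stricter one. FOXO1 (-3.19) and TXNIP (-3.04), a glucose-induced arrestin, fell, while IGF2, a fetal growth factor, rose by 1.20.

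Of 20 tested replication histone genes 11 rose and 1 fell (median 0.87), or 8 and 2 with library size alone (median 0.44). The rises included HIST1H1C (1.02), HIST2H2BE (0.91) and HIST1H2AC (0.87). Many histone genes are near-identical copies. The 35 listed genes made 0.00756% of the counts at 6 h, against 0.00577% at 0 h, and 6 passed a stricter filter of 5 CPM in 2 libraries. Of 52 proliferation genes 24 rose and 21 fell (median -0.01); with library size alone 9 were higher and 36 lower (median -0.45), and the list made 0.399% of the counts at 6 h, against 0.498% at 0 h. AURKA (-2.71), E2F3 (-2.52) and CDC6 (-1.74) fell. Of 42 interferon-response genes 22 rose (52.4%) and 13 fell (31%; median 0.48 with TMM, 0.04 with library size alone), and the antigen presentation genes B2M (1.13) and HLA-E (0.96) rose. Of the 13 protein genes of the mitochondrial genome, which has its own polymerase, 7 fell and 3 rose (median -0.13); with library size alone 12 were lower and 1 higher (median -0.57), and with ribosomal scaling 13 were lower. MT-ND2 had 653 and 683 CPM at 6 h, against 3211 and 3349 CPM at 0 h (-2.30 ± 0.06), MT-CYB (-1.91) and MT-ND1 (-1.16) fell, whereas MT-CO1 had 15492 and 15820 CPM, against 9819 and 9823 CPM (0.67).

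**Figure D3:**
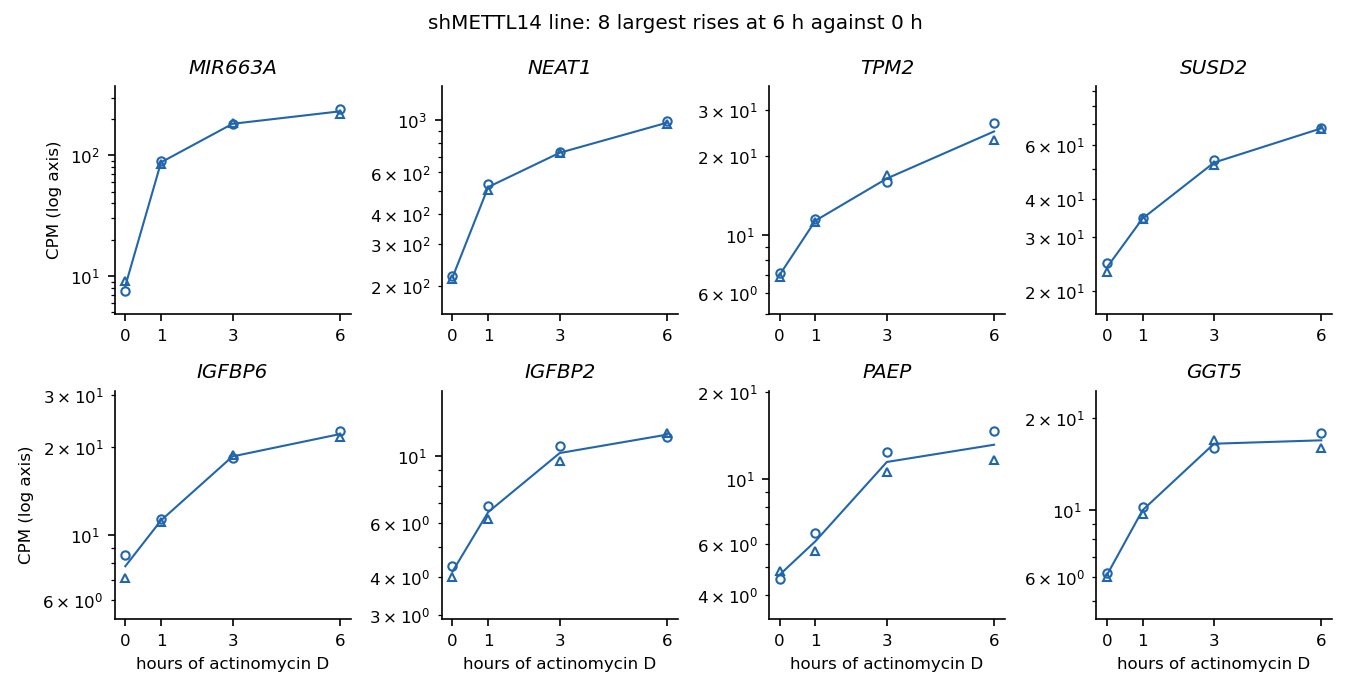
CPM on a log axis against hours of actinomycin D for the 8 genes with the largest rises at 6 h against 0 h in the shMETTL14 line; circles are replicate 1, triangles replicate 2, lines join the means of 2 libraries. The entry named MIR663A and NEAT1 rose most within the first hour, and MIR663A stood near 232 CPM at 6 h, against 8.26 CPM at 0 h.

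The largest rises were in noncoding entries and in low to moderate genes of the cell surface and matrix. The entry named MIR663A (chr20:26167556-26232162, minus strand, 4401 exonic bases, hence not the mature miRNA) had 243 and 221 CPM at 6 h, against 7.46 and 9.07 CPM at 0 h (4.82 ± 0.13, adjusted p = 1.2e-16), a 28.2-fold higher level. NEAT1, the architectural RNA of paraspeckles (chr11:65190245-65213011, plus strand), had 987 and 955 CPM, against 221 and 214 CPM (2.16 ± 0.07). TPM2, a tropomyosin, had 26.6 and 23 CPM at 6 h, against 7.15 and 6.91 CPM at 0 h (1.82 ± 0.09). SUSD2 (1.51), the insulin-like growth factor binding proteins IGFBP6 (1.5) and IGFBP2 (1.5), PAEP (1.49) and GGT5 (1.48), a gamma-glutamyltransferase, completed the 8.

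Of 19 long noncoding RNAs 7 rose (36.8%, against 37.6% of all tested genes) and 5 fell (26.3%, against 34.6%). The median was 0.27 with TMM and -0.17 with library size alone. KCNQ1OT1, the antisense RNA of an imprinted domain, had 63.3 CPM in both libraries at 6 h, against 142 and 140 CPM at 0 h (-1.16), and MIR22HG, whose gene overlaps WDR81, fell by 2.18. Of 16 host genes of small nucleolar RNAs 6 rose (37.5%) and 7 fell (43.8%), with a median of 0.17 with TMM and -0.27 with library size alone: SNHG12, which overlaps TRNAU1AP, changed by -2.50 and SNHG3, which overlaps RCC1, by -1.56, while SNHG5 rose by 0.98. Of the markers of other cell types that were tested, all 5 for blood, both for fibroblasts, 4 of 5 for endothelial and stellate cells and 1 of 3 for HEK293T rose. LYZ rose by 1.19, RELN by 0.88, CDH2 by 0.81, PDGFRB by 1.08, ACTA2 by 0.68, COL1A1 by 0.58, CD14 by 0.83, CD68 by 1.62 and LYVE1 by 0.52, and POU4F1 fell by 0.56; ACTA2 overlaps FAS, LYVE1 overlaps MRVI1 and CD68 overlaps another annotated gene.

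The course showed when the changes began. At 1 h 39.1% of the genes had changed and at 3 h 65.3%, against 0 h, and between 3 h and 6 h 39.5%. At 1 h 3439 genes had risen (23.1%) and 2385 had fallen (16%) relative to 0 h, and at 3 h 5428 had risen (36.5%) and 4299 had fallen (28.9%). The number of rises at 1 h dropped to 2124 without shMETTL14 0 h replicate 1, to 1640 without 0 h replicate 2 and to 2126 without 1 h replicate 1. Between 3 h and 6 h 2630 further rises (17.7%) and 3246 further falls (21.8%) were called. The first hour and the last 3 h use different libraries: of the 2385 genes that fell in the first hour, 886 (37.1%) fell again from 3 to 6 h, which are 27.3% of the late falls, and 132 (5.53%) rose, which are 5.02% of the late rises. Of the 3439 early rises 1465 (42.6%) rose again, 55.7% of the late rises, and 405 (11.8%) fell, 12.5% of the late falls.

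The largest falls differed in their early course. NFKBIA was at 7.18% of its 0 h level after 1 h, IER3 at 7.36% and C10orf10 at 9.96%, and their log2 changes from 3 to 6 h did not pass for NFKBIA (0.35, adjusted p = 0.24) or C10orf10 (0.20, adjusted p = 0.70). HPS6 was at 69.4% after 1 h, and FADD at 79.1%; from 3 to 6 h HPS6 changed by -2.55 (adjusted p = 7.6e-07) and FADD by -2.18 (adjusted p = 1.0e-07). MYC stood at 21.2% after 1 h, 4.91% after 3 h and 2.90% after 6 h. MSH6 averaged 139 CPM at 1 h (log2 change against 0 h 0.03, adjusted p = 0.78) and changed by -1.69 from 3 to 6 h. Besides MIR663A, NEAT1 and TPM2, the largest early rises were in SLC22A18, an organic cation transporter-like protein, and MICALL2, a junctional Rab effector, at 12.9 and 11.5 CPM on average at 1 h, against 7.47 and 7.17 CPM at 0 h.

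**Figure D4:**
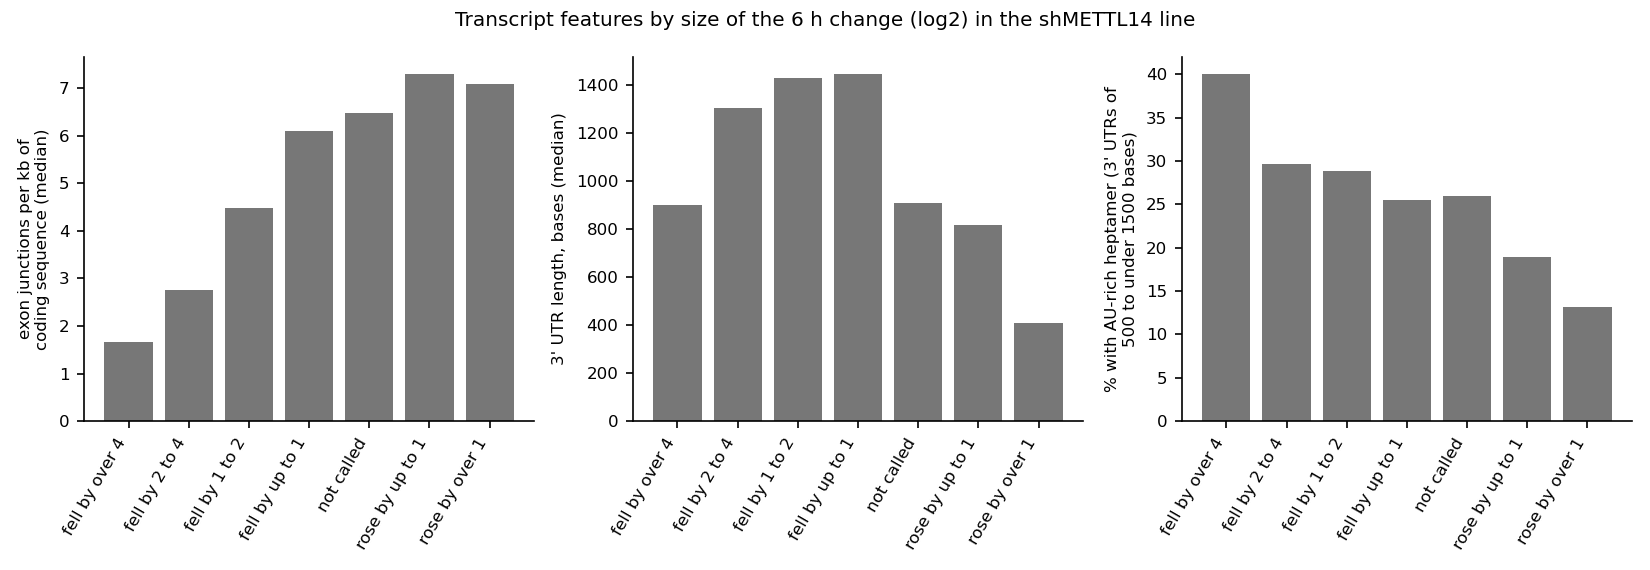
Transcript features of genes grouped by their 6 h change in the shMETTL14 line: median exon junctions per kilobase of coding sequence, median 3′ UTR length in bases, and percent of genes with the AU-rich heptamer among 3′ UTRs of 500 to under 1500 bases. Bars start at 0; junction density climbs from 1.66 in genes that fell by over 4 (log2) to 7.29 in genes that rose by up to 1.

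Genes that fell most had few introns. Features came from 1 coding transcript for each of 12607 tested genes (84.7%). Genes that fell by more than 4 had a median of 3 exons and 1.66 exon junctions per kilobase of coding sequence, those that fell by 2 to 4 had 5 exons and 2.75 junctions, and those that rose by more than 1 had 9 exons and 7.09 junctions. Single-exon genes made 15.5% of the coding genes that fell by more than 4, against 1.44% of those that rose by more than 1. Over the 12607 genes, Spearman's rho between junction density and the 6 h log2 fold change was 0.39, and between coding length and the change -0.18. In shCtrl cells the same rhos were 0.42 and -0.17, so the relation was not particular to the shMETTL14 line. With the difference between the 2 lines the rhos were -0.015 and -0.084. Genes are not independent replicates.

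The relation to the 3′ UTR was smaller by rank correlation. Median 3′ UTR length was 898 bases in genes that fell by more than 4, 1303 in those that fell by 2 to 4, and 407 in those that rose by more than 1 (rho -0.23 over 12432 genes). That rho was -0.23 in shCtrl cells too, and -0.058 with the difference between the lines. TATTTAT stood in 36.9% of the first class and 11.9% of the last. Genes that fell by 2 to 4, 1 to 2 and up to 1 had 40.3%, 40.6% and 39.7%, and genes not called 30.6%. The share thus did not climb with the size of the fall. Among 3′ UTRs of 500 to under 1500 bases the first class had 40.0% (n = 55), the last 13.1% (n = 289) and genes not called 25.9%. In the next range of longer 3′ UTRs, starting at 1500 bases, they had 50.0% (n = 18), 25.2% (n = 111) and 47.9%. GGACT, an m6A consensus core, was counted on the transcript strand over the coding sequence and the 3′ UTR together. It had a median of 1.31 matches per kilobase in the first class and 1.07 in the last. The classes between had medians from 0.888 to 0.946, and 0.935 per kilobase was the median of all genes. The rho with the 6 h change was 0.025 over 12607 genes, 0.008 in shCtrl cells and 0.054 with the difference between the lines.

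In the authors' deposited table of half-lives, which was derived from the same libraries and so is no independent measure, an entry for shMETTL14 existed for 4810 of the 5148 genes that fell (93.4%) and for 693 of the 5600 that rose (12.4%). The medians of the authors' deposited table were 3.15 h for genes that fell, 1.77 h for those that fell by more than 2 and 12.7 h for the listed genes that rose. The authors' deposited table gives 0.817 h for BAMBI, 0.943 h for SOX9, 1.07 h for MYC and 3.69 h for METTL14 in shMETTL14 cells.

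**Figure D5:**
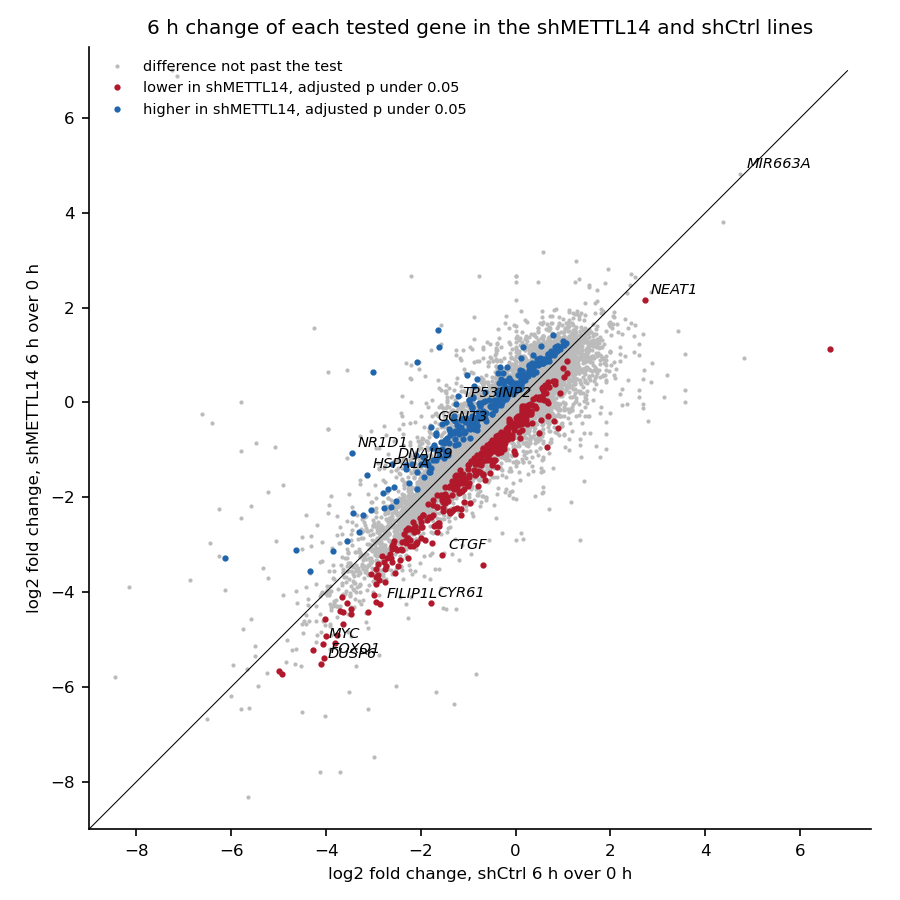
Log2 fold change at 6 h over 0 h for each of the 14887 tested genes in the shMETTL14 line (vertical) and the shCtrl line (horizontal), with the diagonal of equal change; red and blue points passed the test of the difference. Most genes lie along the diagonal, with CYR61 and CTGF below it and NR1D1 and HSPA1A above it.

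The knockdown line was set against shCtrl cells treated in the same way, with no library in common. In shCtrl cells 70.1% of the genes changed, with 5491 higher (36.9%) and 4940 lower (33.2%), and in shSETD2 cells 69.1%, with 4995 higher (33.6%) and 5292 lower (35.5%). Across the 14887 genes the 6 h change in shMETTL14 cells had a Spearman's rho of 0.90 with that in shCtrl cells and 0.89 with that in shSETD2 cells. The difference between shMETTL14 and shCtrl cells passed the edgeR test for 636 genes (4.27%), of which 272 (1.83%) were higher and 364 (2.45%) lower in shMETTL14 cells. These counts depend on single libraries. The higher count was 649 and 500 without shMETTL14 0 h replicate 1 or 2, 165 without shMETTL14 6 h replicate 1, 574 and 605 without shCtrl 0 h replicate 1 or 2, and 130 without shCtrl 6 h replicate 2. The lower count was 128 and 123 without shMETTL14 0 h replicate 1 or 2, 195 without shMETTL14 6 h replicate 1, 123 and 115 without shCtrl 0 h replicate 1 or 2, and 239 and 220 without shCtrl 6 h replicate 1 or 2.

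Among genes with at least 10 CPM in both lines, CYR61 fell further in shMETTL14 cells than in shCtrl cells by the widest margin. It had 2.14 and 1.75 CPM at 6 h, against 36.9 and 36.6 CPM at 0 h, in shMETTL14 cells. In shCtrl cells it had 11.9 and 10.6 CPM at 6 h, against 39.7 and 38.6 CPM at 0 h. The log2 change was -4.23 in shMETTL14 cells and -1.79 in shCtrl cells, and the difference was -2.44 ± 0.15 (adjusted p = 4.6e-10). The level left at 6 h was 5.29% in shMETTL14 cells and 28.8% in shCtrl cells. The shMETTL14 libraries lay below the shCtrl libraries at both times, by far more at 6 h.

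CTGF had 21.2 and 24.2 CPM at 6 h, against 208 and 213 CPM at 0 h, in shMETTL14 cells, and 58.1 and 58.0 CPM at 6 h, against 175 and 164 CPM at 0 h, in shCtrl cells (difference -1.67 ± 0.08, adjusted p = 5.5e-12). DUSP6 differed by -1.42, FILIP1L, whose gene overlaps CMSS1, by -1.39 and FOXQ1, a forkhead factor, by -1.36. FOXQ1 had 2.80 and 2.27 CPM at 6 h, against 107 and 108 CPM at 0 h, in shMETTL14 cells, and 10.6 and 10.7 CPM, against 175 and 174 CPM, in shCtrl cells. XBP1 (-1.29), IER3 (-1.26), MYC (-1.02) and ZFP36L2 (-1.02) fell further in shMETTL14 cells as well. Against shSETD2 cells the difference passed for 7.17% of the genes, 5.06% higher (754 genes) and 2.11% lower (314 genes) in shMETTL14 cells. The higher count was 177 and 212 without shMETTL14 0 h replicate 1 or 2, 336 without shMETTL14 6 h replicate 2, 370 and 344 without shSETD2 0 h replicate 1 or 2, and 2005 without shSETD2 6 h replicate 2. The lower count was 209 without shMETTL14 0 h replicate 1, 183 without shMETTL14 6 h replicate 2, 181 and 175 without shSETD2 0 h replicate 1 or 2, and 970 without shSETD2 6 h replicate 2. Of the genes above, CYR61 (-2.22), IER3 (-1.77), DUSP6 (-1.39), FOXQ1 (-1.12), XBP1 (-1.02) and CTGF (-0.67) also differed (adjusted p up to 5.2e-05). FILIP1L did not pass (-0.34, adjusted p = 0.12). This contrast reuses the same shMETTL14 libraries, and the genes were named with their difference from shCtrl known, so it is no independent check. The shSETD2 replicates at 6 h also differed most of all groups (chi-square per degree of freedom 19.5, against 5.25 for shMETTL14 at 6 h).

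In the opposite direction, NR1D1, the clock repressor REV-ERB-alpha, kept more of its mRNA in shMETTL14 cells. It had 7.27 and 6.65 CPM at 6 h, against 14 and 15.2 CPM at 0 h, in shMETTL14 cells, and 1.66 and 1.3 CPM at 6 h, against 16.6 and 16.2 CPM at 0 h, in shCtrl cells (difference 2.40 ± 0.20, adjusted p = 6.3e-08). NR1D1 overlaps THRA on the other strand, so its counts are uncertain. HSPA1A, an inducible HSP70, had 7.32 and 7.12 CPM, against 21.7 and 19.7 CPM, in shMETTL14 cells and 2.95 and 3.55 CPM, against 29.4 and 28 CPM, in shCtrl cells (difference 1.63 ± 0.16). Its near-identical copy HSPA1B did not pass (0.51, adjusted p = 0.087). DNAJB9, GCNT3 and TP53INP2 differed by 1.31, 1.27 and 1.24; all have genes that overlap others (PNPLA8 and THAP5, GTF2A2, and NCOA6), and the 6 h change of TP53INP2 in shMETTL14 cells did not pass (-0.02), though it was a called fall with library size alone (-0.46). Against shSETD2 cells NR1D1 (2.26) and HSPA1A (1.98) differed too, and TP53INP2 did not pass (-0.13, adjusted p = 0.44). These contrasts share the shMETTL14 libraries with those against shCtrl cells.

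Read by list, the difference from shCtrl passed for 4 of 14 m6A readers and erasers, all lower. Among 39 unfolded protein and ATF4 response genes 10 were higher and 2 lower, and among 47 secreted proteins 7 were higher and 1 lower. Of 26 Wnt, Notch, TGF-beta and BMP feedback genes 7 were lower and 0 higher, and of 30 cholesterol genes 6 were lower and 0 higher. MT-CYB kept more of its RNA in shMETTL14 cells (0.90 ± 0.06, adjusted p = 4.6e-10). The background against which to read these counts is 1.83% higher and 2.45% lower over all tested genes. The lists given here were singled out after their values were seen. ERK feedback genes had 2 higher and 4 lower, p53 targets 3 and 3, liver factors 3 and 4, and proliferation genes 3 and 2. Ribosomal protein, nuclear oxidative phosphorylation and m6A writer genes had 0 either way. List counts of the difference were not recomputed with other scalings or with libraries left out.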

How the data were processed

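The shMETTL14 libraries at 0, 1, 3 and 6 h were analysed from the gene count values the authors deposited; the build was GRCh37 and TopHat, HTSeq 0.6.1p1 and cutadapt are listed, per the submitters' processing notes, without settings or strand handling. RPKM values, deposited by the authors beside the counts, were used in alternatives only; the authors' deposited half-life table was described, not tested. Members and lists were chosen with earlier results of these data known. Group and replicate came from sample titles. The series design text gives 2 biological replicates per group, and the labels do not state whether these came from separate cultures. The p-values measure only the spread between 2 libraries a group.

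Of 34618 genes 14887 passed filterByExpr; entries sharing a symbol (180) and 29 symbols turned into day numbers were kept out of lists, and 9318 genes had no count. The test was that of edgeR 4.0.16 under R 4.3.3 (TMM, robust quasi-likelihood F test, two-sided, Benjamini-Hochberg at 0.05), all 24 libraries in 1 model of 12 groups with 12 residual degrees of freedom. The procedure was run on simulated data in which few genes changed, as many up as down. That setting does not test the scaling where most genes change, as they did here. Differences between lines are contrasts of that model. Percent left is the mean CPM at a time over that at 0 h. Named genes were METTL14, METTL3, MYC and ACTB, the 8 largest rises and falls (at least 10 CPM at either time, libraries apart), the 5 largest rises at 1 h, the 5 largest differences from shCtrl in each direction, and up to 3 genes a list by p. JUNB, JUN, EGR1, FOS, FOSB, SRF, SPRY2, DUSP1, GATA4, HNF4A, ALKBH5, SETD2 and MT-CO1 stand outside that rule and were named after their values were seen; ALB and AFP checked the cell type. Overlapping genes that hold at least 10% as many counts are named. Transcript features came from GENCODE v29 (GRCh38), matched by gene ID. Alternatives were DESeq2 1.42.0, limma 3.58.1 on log2(RPKM + 0.1 or 1), other scalings and filters, fewer libraries and the replicate block. A few genes that the rule would name are not reported here.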

Additional observations from a re-analysis of the deposited data

Results flagged for a closer look

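The change from 0 h to 6 h in shMETTL14 cells differed from that in shCtrl cells, by the edgeR test of the difference itself (adjusted p under 0.05), for 42 of 129 named genes. The naming rule itself took the 5 largest such differences in each direction and many large falls, so this count says nothing of how common such differences are; over all tested genes 4.27% differed, 364 lower and 272 higher in shMETTL14 cells. Values are log2 differences, shMETTL14 minus shCtrl.

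Among signalling and early response genes the differences were -2.44 for CYR61, -1.67 for CTGF, -1.42 for DUSP6, -1.26 for IER3, -1.02 for MYC, -0.965 for ID2, -0.885 for ERRFI1, -0.685 for RHOB, -0.643 for SOCS6, -0.594 for AXIN2, -0.423 for MCL1 and -0.366 for TNFAIP3. Among transcription and chromatin factors they were -1.36 for FOXQ1, -1.29 for XBP1, -1.08 for NFIL3, -0.781 for SOX9, -0.562 for FOXA1, -0.55 for ZNF281, -0.546 for TBX3, -0.52 for E2F3, -0.487 for KDM2A and -0.353 for KDM3A.

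Among genes of RNA decay and m6A reading they were -1.02 for ZFP36L2, -0.777 for TOB1, -0.433 for CNOT2, -0.399 for ZFP36L1 and -0.387 for YTHDF1. Among the rest they were -1.39 for FILIP1L, -0.968 for HERPUD1, -0.879 for TXNIP, -0.634 for AURKA, -0.561 for NEAT1 and -0.433 for DNAJB1. NEAT1 rose in both lines.

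In 9 genes the gene fell less or rose more in shMETTL14 cells: 2.40 for NR1D1, 1.63 for HSPA1A, 1.31 for DNAJB9, 1.27 for GCNT3, 1.24 for TP53INP2, 0.897 for MT-CYB, 0.712 for PPM1D, 0.188 for ITIH2 and 0.176 for SERPINA1. Only the 5 largest differences in each direction under the naming rule were recomputed under the alternatives, so those of XBP1 and IER3 were not. Small ones, such as those of ITIH2 and SERPINA1, were not checked against the scaling.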

How the results depend on the processing

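Alternatives were run for the 6 h changes of the named genes, 5 changes at 1 h and the 5 largest differences from shCtrl in each direction. Of 2070 values under them 2050 kept direction and side of the threshold. Ribosomal scaling was run on counts and lists only. METTL3 turned negative with library size alone (-0.41, then a called fall), with limma on log2(RPKM + 0.1) (-0.41) and on log2(RPKM + 1) (-0.38), without a filter (-0.024), and with only the 8 shMETTL14 libraries (-0.066) or only 4 (-0.044). The 6 h change of TP53INP2 ranged from -0.040 to 0.027 when single libraries were left out and turned positive without shMETTL14 0 h replicate 1; it was a called fall with library size alone (-0.46), limma (-0.46 and -0.44) and the 8 shMETTL14 libraries (-0.12). CD14, COL1A1 and LYVE1 lost their calls with library size alone and with limma. Counts of genes that moved by over 1.5 times are given next in the order library size alone, limma on log2(RPKM + 0.1), limma on log2(RPKM + 1); the cause was not tested. For shMETTL14, rises at 6 h were 2942, 2870 and 2970 (87 with ribosomal scaling, which gave 11885 falls), rises at 1 h 1390, 1223 and 1360, at 3 h 2988, 2804 and 2917, and from 3 to 6 h 882, 811 and 880. Rises at 6 h were 3289, 3308 and 3300 in shCtrl and 3241, 3216 and 3192 in shSETD2. The difference from shCtrl had 146 and 157 higher (library size, RPKM + 0.1) and 841, 799 and 902 lower. That from shSETD2 had 192, 196 and 249 higher and 842, 861 and 1125 lower, against 754 and 314 as reported. It had 362 higher and 548 lower with DESeq2, 305 and 500 with RLE scaling and 1164 higher with the stricter filter of 5 CPM in 2 libraries.

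Leaving out each library in turn gave 5087 to 5283 rises and 4708 to 4928 falls at 6 h in shMETTL14, 1640 to 2756 and 1678 to 2031 at 1 h, 4805 to 4916 and 3883 to 3919 at 3 h, and 1764 to 2051 and 2578 to 2839 from 3 to 6 h. It gave 130 to 649 higher and 115 to 324 lower for the difference from shCtrl, and 177 to 2005 and 175 to 970 for that from shSETD2. With the replicate block, 5681 genes rose and 5206 fell at 6 h, and the higher count against shSETD2 was 1210. Same-numbered libraries of the line deviated together (r 0.165 to 0.506 over 8583 genes), but with 2 numbers this is a hint from the data, not the design. Depth limits genes near 3 counts, such as HPS6 at 6 h.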
